A study of Mus musculus with 20 samples.

Results

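The cortex of mice with a null mutation of NHE1 was compared with pooled cortex of wild-type mice on 5 of the 20 arrays in the series, chosen by their titles. Each array had 2 channels, one for amplified RNA of a null mutant and one for the wild-type pool, so each value is a ratio of null over wild type on one array. The other 15 arrays compared null and wild-type RNA in the same way, with 5 each from hippocampus, cerebellum and brain stem-diencephalon. The sources used here give no strain, age, sex or number of animals and no treatment for either group, and the wild-type side was always a pool. Arrays 1, 2 and 3 carried the null RNA in channel 1. A second array of number 2 and an array without a number carried it in channel 2, and these are called swapped. Their ratios were multiplied by -1, and each array was centred on its median.

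NHE1 is a sodium-hydrogen exchanger of the plasma membrane that exports protons in exchange for sodium and so helps to set cell pH and volume. Neurons produce acid when they fire, and acid lowers the activity of many channels and enzymes, so acid extrusion is tied to excitability. Mice without NHE1 are known for ataxia and for seizures with slow-wave activity in the cortex. Ratios hold no level of expression, so the tissue was not checked against cortical markers.

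The deposited ratios were read as log2 values, so 1 stands for a 2-fold difference. Neither the base of the log nor the order of the channels is stated, so null over wild type is the likely direction, and the opposite order would turn every sign given here. In the values given per gene, the order is always array 1, array 2, swapped array 2, array 3 and the swapped array without a number. Arrays 2 and swapped 2 were averaged, which gave 4 replicates (n = 4), and the fitted value carries the standard error (SE) of limma's model over all 4 regions, with its p adjusted over all 8319 features by the Benjamini-Hochberg method. A feature is a gene, with its probes averaged, or a probe without a single gene name. The model adjusts for channel orientation, so a fitted value can differ from the plain mean of the arrays. "Rose" and "fell" mark features with an adjusted p under 0.05, and fold changes are computed from the fitted log2 value.

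Array 1 stood apart from the other 4 cortex arrays. Across probes its ratios correlated with those of arrays 2 and 3 at 0.126 and 0.0946, and with those of the swapped arrays at -0.298 for number 2 and -0.163 for the unnumbered one. The other arrays correlated with each other at 0.387 to 0.614. With the number 1 arrays of the same orientation from the other regions, array 1 correlated at 0.614 (hippocampus), 0.553 (cerebellum) and 0.506 (brain stem-diencephalon). With the swapped number 1 arrays of these regions, after their signs were turned, it correlated at -0.00313, -0.209 and -0.158. The likeness was thus limited to arrays of one orientation. Whether the label of array 1 gives its orientation and source correctly was not tested, and each value of array 1 is read as labelled. Of 4844 features with a value on all 5 arrays, 2769 had opposite signs on array 1 and in the mean of the other 4. Over all features called in cortex, the median size of the log2 ratio was 0.172 on array 1, 0.409 and 0.530 on array 2 and its swap, 0.554 on array 3 and 0.652 on the unnumbered array. Over all probes array 1 also had the smallest spread, with a standard deviation of 0.288 against 0.320 to 0.425 on the others. Array 1 had the opposite sign in 62 of the 285 called features that it measured. The count was 10 of 329 on array 2, 8 of 246 on its swap and 6 of 331 on array 3. On the unnumbered array it was 0 of 338. The calls come from a fit of these same arrays, so agreement in sign is in part built in. The Y-linked gene Eif2s3y also separated array 1, at -1.36, from array 2 at 1.04, array 3 at 1.64 and the unnumbered array at 1.61. Its sign thus differed between arrays that were all labelled as null against pool. The labels do not give sex, and the part of sex in these values was not tested. Eif2s3y split the arrays as did changes that array 1 lacked or had with the opposite sign. For those changes, a difference in sex between null mice and pool cannot be told apart from the mutation. Xist, the RNA that coats the inactive X chromosome, had 0.054, 0.40, 0.50, 0.46 and 0.29 on one probe.

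**Figure D1:**
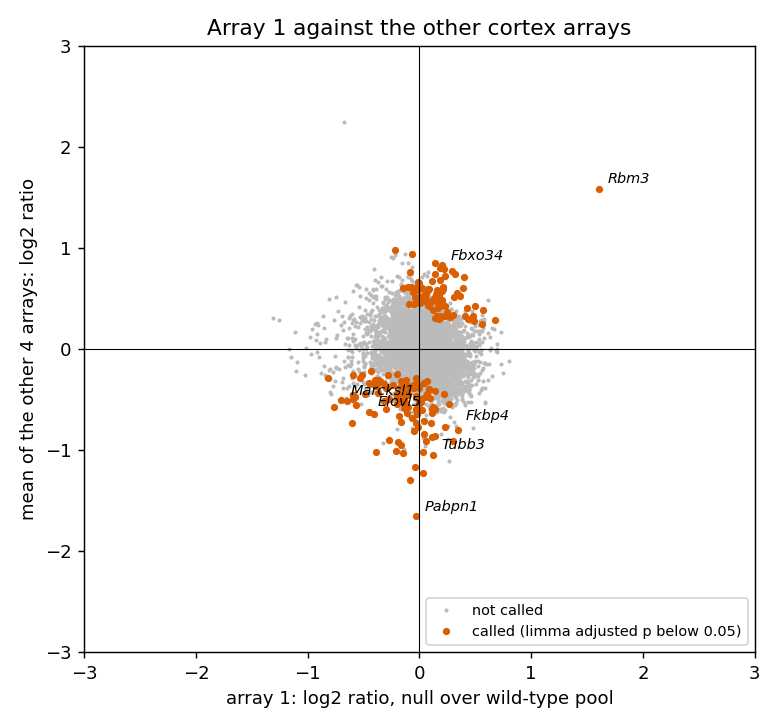
Each point is a feature with a value on all 5 cortex arrays (4844 in all, 1 of them outside the plotted range), with the log2 ratio on array 1 on the horizontal axis and the mean of the other 4 arrays on the vertical axis. The 206 called features, in orange, spread along the vertical axis more than along the horizontal one, 47 of them had opposite signs on the 2 axes, and Rbm3 lay far from 0 on both.

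In cortex, 343 of 8319 features passed the threshold with limma (4.12%), 140 higher (1.68%) and 203 lower (2.44%) in the null mutants. Of these, 227 had a gene symbol, 96 higher and 131 lower. A change of at least 1.5-fold was reached by 36 higher and 74 lower features, and one of at least 2-fold by 2 higher and 12 lower features. Of the calls, 40.8% were higher, against 52.2% without centring and 21.6% of 37 calls after arrays were scaled to one spread. In bulk tissue, fewer cells of a type and less RNA per cell cannot be told apart.

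Single replicates moved this count. It was 1689 without array 1, 56 without number 2, 31 without array 3 and 6 without the unnumbered array. Leaving out replicates of other regions, which share the estimate of the spread, gave 862 and 203 without hippocampus 1 and 2, 116 and 159 without cerebellum 2 and 3, and 164 without brain stem-diencephalon 3. With a variance trend and robust moderation 2 features passed, and of the 69 called genes described here Slc16a13 was the one that did. That trend was fitted on the mean log2 ratio of each feature over the replicates of all regions. It was not fitted on a level of expression, so the spread it gives can depend on the size of the change itself. Ciart then had an adjusted p of 0.0562.

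A count that does not use the model gave the share of features with one sign on every array. Of 4844 features with a value on all 5 arrays, 779 had one sign (16.1%), 470 above 0 (9.7%) and 309 below 0 (6.38%). With the swapped arrays left unturned the count was 295, or 6.09%. Of the 206 called features with 5 values, 148 had one sign on all 5, 67 higher and 81 lower. Of the 343 calls, 5 held with each cortex replicate left out in turn, and Rbm3 and Ciart were the only ones with a gene name.

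**Figure D2:**
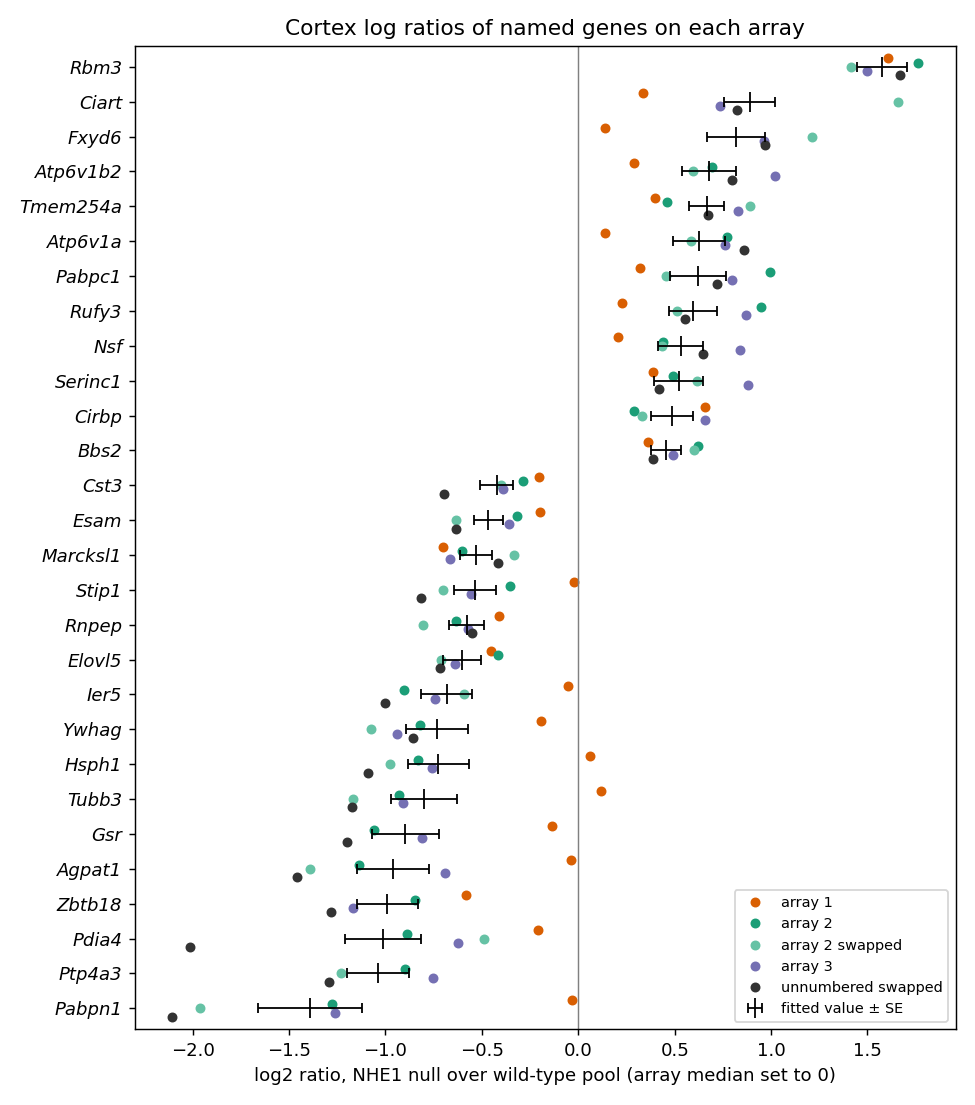
Log2 ratios of null over wild-type pool for 28 named genes, with a coloured point for each of the 5 cortex arrays and a black bar for the fitted value ± SE. Rbm3 lay between 1.42 and 1.76 on every array, while array 1 lay near 0 for genes such as Stip1 and Agpat1, whose other 4 arrays were below 0.

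The RNA-binding proteins included Rbm3, with like values on all 5 arrays, and members that changed in both directions. Rbm3, a protein that is induced by mild cold and binds RNA at synapses, had log2 ratios of 1.61, 1.76, 1.42, 1.5 and 1.67. All 5 arrays lay far above 0 and close to each other, array 1 included. Rbm3 rose by 1.58 ± 0.13 (SE, n = 4), or 2.98-fold (adjusted p = 6.05e-05), but had an adjusted p of 0.123 with a variance trend and robust moderation. Cirbp, the related cold-inducible protein, had 0.66, 0.29, 0.33, 0.66 and no value. The 4 values were above 0, with arrays 1 and 3 the higher ones, and Cirbp rose by 0.49 ± 0.11 (SE, n = 3, adjusted p = 0.0348).

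Proteins that bind the poly(A) tail of messenger RNA went in opposite directions. The cytoplasmic Pabpc1 had 0.32, 0.99, 0.46, 0.80 and 0.72, lowest on array 1, and rose by 0.62 ± 0.15 (n = 4, adjusted p = 0.0364). Its 2 probes were above 0 on every array with a value. The nuclear Pabpn1 had -0.034, -1.28, -1.96, -1.26 and -2.11. Array 1 was near 0 and the 2 swapped arrays were the lowest. Pabpn1 fell by 1.39 ± 0.27, or 2.62-fold (n = 4, adjusted p = 0.0219). A second Pabpn1 probe, which missed the filter on empty cells, had a value only on array 2, at -0.39. Serbp1, which binds RNA and idle ribosomes, rose by 0.38 ± 0.10 (adjusted p = 0.0461). One of its 5 fitted probes was below 0 on all 4 arrays with a value, from -0.26 to -0.06.

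Of 12 measured genes on the list of cold-inducible and stress RNA-binding proteins, 3 rose and 1 fell, which is 33.3% of the list beside 4.12% of all features. This list, like the others, was chosen with earlier results of these data known. Its share is a description of its members and was not tested. The list median was 0.099, and that of all features was within 0.001 of 0. The other 8, among them the stress granule proteins G3bp1 and Tia1, had values from -0.24 to 0.20 and did not pass. Of the 5 named RNA-binding proteins that were called, Rbm3 alone passed without number 2, without array 3 and without the unnumbered array, where the others had adjusted p-values up to 0.515. All 5 passed without array 1. Serbp1 had 0.23 without the unnumbered array.

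The 250 bases before the start site of Cirbp are shown as the promoter of a cold-inducible gene (RefSeq, GRCm38.p6, chr10:80167589-80167838, plus strand, the first of 2 windows). They held neither of 2 patterns searched on both strands, CACGTG, the E-box that clock and other basic helix-loop-helix factors bind, and GAANNTTC or TTCNNGAA, paired units of the heat shock element. Capitals mark matches in the sequences printed here.
Cirbp: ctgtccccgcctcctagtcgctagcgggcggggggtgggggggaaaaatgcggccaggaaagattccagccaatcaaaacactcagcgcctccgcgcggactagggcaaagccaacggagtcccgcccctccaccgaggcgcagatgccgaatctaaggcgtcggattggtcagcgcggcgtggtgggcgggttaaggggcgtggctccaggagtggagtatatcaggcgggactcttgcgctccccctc

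Ciart, a transcriptional repressor within the circadian clock, had 0.34, no value, 1.66, 0.74 and 0.82. The 4 values were above 0, lowest on array 1 and highest on the swapped array 2. Ciart rose by 0.89 ± 0.13 (SE, n = 4), or 1.85-fold (adjusted p = 0.00993), and passed with each cortex replicate left out (adjusted p from 0.00278 to 0.0472). The clock list had 10 measured genes, with 1 called (10%, beside 4.12% of all features) and a median of 0.039. Npas2, an activator of the clock that pairs with Bmal1, had -0.39 ± 0.10 (adjusted p = 0.0508), with array 1 at 0.04 and the others below 0. The nuclear receptor Nr1d2 had 0.12 ± 0.08 (n = 3, adjusted p = 0.382), and Per3, Tef, Timeless and the kinases Csnk1d and Csnk1e had values between -0.14 and 0.06.

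The 250 bases before the start site of Ciart (chr3:95882229-95882478, minus strand, RefSeq, GRCm38.p6) held CACGTG at 3 places, at positions -116, -58 and -44 from the start site. The pattern was present in 6.02% of 32851 promoter windows of this length. A match is a description of the letters and no evidence of binding. The window of Atp6v1a, described next, is printed below it (chr16:44139260-44139509, minus strand) and held CACGTG once, at position -131.
Ciart: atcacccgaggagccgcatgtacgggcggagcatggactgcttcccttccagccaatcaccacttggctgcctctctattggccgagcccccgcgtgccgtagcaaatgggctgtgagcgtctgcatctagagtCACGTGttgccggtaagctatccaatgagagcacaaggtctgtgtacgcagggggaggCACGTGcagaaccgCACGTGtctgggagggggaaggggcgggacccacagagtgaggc
Atp6v1a: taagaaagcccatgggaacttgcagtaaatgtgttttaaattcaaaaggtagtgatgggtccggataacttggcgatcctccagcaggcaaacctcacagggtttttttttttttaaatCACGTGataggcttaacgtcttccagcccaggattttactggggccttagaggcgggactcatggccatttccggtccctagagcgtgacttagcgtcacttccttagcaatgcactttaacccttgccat

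Pumps and ion transport include the genes nearest to the function of NHE1. The vacuolar proton ATPase moves protons into endosomes, lysosomes and synaptic vesicles, and its A and B subunits form the catalytic head. The B subunit of brain, Atp6v1b2, had 0.29, 0.69, 0.60, 1.02 and 0.80, all above 0 and lowest on array 1. It rose by 0.68 ± 0.14, or 1.60-fold (SE, n = 4, adjusted p = 0.0257). Another Atp6v1b2 probe, which missed the filter, had -0.57 on array 1, 0.64 on array 2 and 0.76 on array 3. The catalytic A subunit Atp6v1a had 0.14, 0.77, 0.58, 0.76 and 0.86. It rose by 0.63 ± 0.13 (n = 4, adjusted p = 0.0282). Its 2 probes had 0.48 and -0.20 on array 1 and were above 0 on the other arrays. Of 11 measured genes of this complex the 2 named ones rose (18.2%, beside 4.12% of all features) and the median was 0.062. The membrane subunit Atp6v0b had -0.40 ± 0.12 and did not pass (adjusted p = 0.0686).

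Fxyd6, a small membrane protein that modulates the sodium pump, had 0.14, no value, 1.21, 0.96 and 0.97. Array 1 was well under the other 3 values, and Fxyd6 rose by 0.82 ± 0.15, or 1.77-fold (n = 4, adjusted p = 0.0189). It was the 1 call among 8 measured sodium and calcium pumps and exchangers (12.5%, beside 4.12% of all features), whose median was -0.049. The beta subunits of the pump did not pass: Atp1b2 had -0.34 ± 0.10 (adjusted p = 0.0655) and Atp1b3 had 0.28 ± 0.09 (adjusted p = 0.085).

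Among acid-base transporters and their partners, Slc9a3r1, a scaffold that anchors sodium-hydrogen exchangers at the membrane, had 0.11, -0.61, -0.46, -0.74 and -0.55. Array 1 was above 0 and the other 4 were below it, and Slc9a3r1 fell by 0.47 ± 0.12 (n = 4, adjusted p = 0.0459). This was 1 call in 10 measured genes (10%, beside 4.12% of all features). Of these genes 7 lay below 0, and the median was -0.200. The neuronal carbonic anhydrase Car7 had -0.47 ± 0.14 (n = 3, adjusted p = 0.0609), below 0 on all 4 arrays with a value. Chp1, a calcineurin-like protein that binds NHE1, had 0.31 ± 0.10 (adjusted p = 0.0883). Without array 1 the 4 called genes of ion transport had adjusted p-values from 0.00337 to 0.00465. None of them, Atp6v1a, Atp6v1b2, Fxyd6 or Slc9a3r1, passed without number 2 (adjusted p from 0.0698 to 0.119), without array 3 (0.105 to 0.148) or without the unnumbered array (0.231 to 0.436).

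The synaptic vesicle cycle had 14 measured genes, with 2 higher and 2 lower (28.6%, beside 4.12% of all features) and a median of 0.183. Nsf, the ATPase that takes fusion complexes apart after a vesicle has fused, had 0.21, 0.44, 0.44, 0.84 and 0.65, above 0 on every array. Nsf rose by 0.53 ± 0.12 (SE, n = 4, adjusted p = 0.031). Synj1, a lipid phosphatase that removes the clathrin coat, had 0.16, 0.50, 0.66, 0.71 and 0.49 and rose by 0.49 ± 0.13 (adjusted p = 0.0459). Both were lowest on array 1. In the other direction, the clathrin light chain Cltb had 0.071, -0.25, -0.45, -0.11 and -0.98, lowest by far on the unnumbered array, and fell by 0.43 ± 0.08 (adjusted p = 0.0219). Rph3a, which binds Rab3 on vesicles, had -0.14, -0.51, -0.47, -0.27 and -0.70, below 0 on all 5 arrays, and fell by 0.44 ± 0.10 (adjusted p = 0.03).

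Rufy3, an adaptor in endosome and lysosome transport along axons, had 0.23, 0.95, 0.51, 0.87 and 0.56 and rose by 0.59 ± 0.12 (n = 4, adjusted p = 0.0272). Serinc1, a membrane protein of the serine incorporator family, had 0.39, 0.49, 0.62, 0.88 and 0.42 and rose by 0.52 ± 0.13 (adjusted p = 0.0419). Both were above 0 on every array. The 6 genes of vesicle and membrane traffic passed without array 1. None passed without number 2 (adjusted p from 0.0512 to 0.122), array 3 (0.0723 to 0.149) or the unnumbered array (0.35 to 0.438).

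Among chaperones, 3 of 45 measured genes passed, all lower, a share of 6.67% beside 4.12% of all features. Pdia4, which forms and rearranges disulfide bonds in the endoplasmic reticulum, had -0.21, -0.89, -0.49, -0.62 and -2.02, with the unnumbered array far under the rest. It fell by 1.01 ± 0.20, or 2.02-fold (SE, n = 4, adjusted p = 0.0235), and had -0.63 ± 0.24 without that array. Hsph1, a nucleotide exchange factor of the Hsp70 system, had 0.062, -0.83, -0.98, -0.76 and -1.09. Array 1 was near 0 and the other 4 lay between -1.09 and -0.76, and Hsph1 fell by 0.73 ± 0.16 (adjusted p = 0.03). Stip1, which hands clients from Hsp70 to Hsp90, had -0.020, -0.35, -0.70, -0.55 and -0.81 and fell by 0.54 ± 0.11 (adjusted p = 0.0257).

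The list of chaperones and folding enzymes had 30 of its 45 measured genes below 0 and a median of -0.066. The Hsp90 cochaperone Fkbp4 had -0.56 ± 0.16 (adjusted p = 0.0555), with array 1 at 0.33 on the side opposite to the other 4. Chordc1, another Hsp90 partner and outside the list, had -0.31, -0.59, -0.47, -0.43 and -0.58, below 0 on all 5 arrays, and fell by 0.46 ± 0.10 (adjusted p = 0.03). The window before the Hsph1 start site is shown for its heat shock pattern, TTCNNGAA, at position -33 from the start site (chr5:149636337-149636586, minus strand, the first of 2 overlapping windows, RefSeq, GRCm38.p6). GAANNTTC or TTCNNGAA was present in 12.8% of all windows of this length, and neither was present in those of Stip1 and Pdia4.
Hsph1: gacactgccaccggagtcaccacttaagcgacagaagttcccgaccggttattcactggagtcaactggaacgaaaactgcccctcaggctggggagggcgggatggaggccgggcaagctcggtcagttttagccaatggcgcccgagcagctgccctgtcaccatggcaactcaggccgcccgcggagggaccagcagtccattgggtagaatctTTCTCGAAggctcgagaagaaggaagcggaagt

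Redox enzymes of the glutathione and thioredoxin systems had 2 lower and 0 higher of 29 measured genes (6.9%, beside 4.12% of all features) and a median of -0.014. Gsr, which regenerates reduced glutathione, had -0.13, -1.06, no value, -0.81 and -1.20. Array 1 was near 0 and the other values were at or under -0.81, and Gsr fell by 0.90 ± 0.17, or 1.86-fold (n = 4, adjusted p = 0.0259). Txnrd1, the reductase of cytosolic thioredoxin, had -0.57, -0.43, 0.050, -1.47 and -0.37, lowest by far on array 3. It fell by 0.62 ± 0.15 (adjusted p = 0.0446) and had -0.38 without array 3. Its substrate Txn1 had 0.52 ± 0.16 (adjusted p = 0.0745), with array 1 at -0.15 and the other 4 between 0.60 and 0.73. Cbs, which makes cystathionine on the way to cysteine, had -0.015, -0.51, -0.84, -1.03 and -0.70 and fell by 0.64 ± 0.13 (adjusted p = 0.0272). All 7 called genes of folding and redox passed without array 1. None passed without number 2 (adjusted p from 0.0512 to 0.0953), array 3 (0.0895 to 0.119) or the unnumbered array (0.34 to 0.502).

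The cytoskeletal list held tubulins, actin-binding proteins, septins and 14-3-3 proteins. Of 36 measured genes, 2 were higher and 7 lower (25%, beside 4.12% of all features), with a median of -0.140. Tubb3, the beta-tubulin of neurons, had 0.12, -0.93, -1.17, -0.91 and -1.18. Array 1 was above 0 and the other 4 were at or under -0.91, and Tubb3 fell by 0.80 ± 0.17, or 1.74-fold (SE, n = 4, adjusted p = 0.0299). Ywhag, a 14-3-3 protein abundant in neurons, had -0.19, -0.82, -1.08, -0.94 and -0.86. All 5 arrays were below 0, array 1 nearest to it, and its 3 probes were below 0 wherever they had a value. Ywhag fell by 0.73 ± 0.16 (adjusted p = 0.031).

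Marcksl1, a membrane protein that binds actin and calmodulin, had -0.70, -0.60, -0.33, -0.66 and -0.42, with array 1 the lowest rather than nearest to 0. Marcksl1 fell by 0.53 ± 0.08 (n = 4, adjusted p = 0.0102). The actin crosslinker Actn1 had -0.32, -0.65, -0.40, -0.47 and -0.55 and fell by 0.48 ± 0.09 (adjusted p = 0.0219), on the 2 probes fitted, while another that missed the filter had values from -0.41 to 0.58. Mark2, a kinase that detaches tau from microtubules, fell by 0.74 ± 0.13 (adjusted p = 0.0124), and had -0.46 without the unnumbered array. A second Mark2 probe that missed the filter had values from -0.18 to 0.14. The septins, filament proteins at membranes, went both ways. Septin11 fell by 0.72 ± 0.19 (adjusted p = 0.0492), with array 1 at -0.045. Septin7 had no value, 0.40, 1.34, no value and 0.37, highest by far on swapped array 2. It rose by 0.73 ± 0.17 (n = 2, adjusted p = 0.0393) and had 0.56 without number 2.

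Each of these 7 cytoskeletal genes passed without array 1. Marcksl1 and Mark2 passed without number 2, Marcksl1 without array 3 (adjusted p = 0.0472) and none without the unnumbered array (0.237 to 0.588).

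Genes of lipid synthesis changed in both directions. Elovl5, which lengthens polyunsaturated fatty acids, had -0.45, -0.42, -0.71, -0.64 and -0.72, all within a narrow range below 0. Elovl5 fell by 0.60 ± 0.10, or 1.52-fold (SE, n = 4, adjusted p = 0.0115). Agpat1, which makes phosphatidic acid, had -0.037, -1.14, -1.39, -0.69 and -1.46, with array 1 near 0, and fell by 0.96 ± 0.19, or 1.95-fold (adjusted p = 0.0219). Of 11 genes of sterol synthesis, 1 rose and 1 fell (18.2%, beside 4.12% of all features). Of the 11, 9 lay below 0, and the median was -0.175. The regulator Srebf1 rose by 0.45 ± 0.11 (adjusted p = 0.0364) but had 0.20 ± 0.16 without the unnumbered array, where it read 0.82. The enzyme Mvd had 0.22, -0.51, -0.82, -0.95 and -0.83 and fell by 0.61 ± 0.16 (adjusted p = 0.0458).

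Glycolysis had 13 measured genes, 11 of them below 0, with a median of -0.129. The phosphofructokinase Pfkl had 0.057, -0.55, no value, -0.50 and -0.61 and fell by 0.46 ± 0.11 (adjusted p = 0.0372). It was the 1 call of the list (7.69%, beside 4.12% of all features). Oxidative phosphorylation had 0 calls in 47 genes and a median of -0.038. The 5 called genes of lipid and sugar metabolism passed without array 1. Elovl5 alone passed without number 2 (adjusted p = 0.0425), and none without array 3 (0.0522 to 0.149) or the unnumbered array (0.309 to 0.637).

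Genes of the cell cycle rose where they changed, 4 of 30 measured (13.3%, beside 4.12% of all features), with 0 lower. Of the 30, 20 lay above 0, and the median was 0.089. Ncapg, a subunit of condensin, had no value, 0.72, 0.64, 0.62 and 0.98 and rose by 0.76 ± 0.18, or 1.69-fold (SE, n = 3, adjusted p = 0.0393). Orc6, of the complex that marks replication origins, had no value, 0.53, 0.45, no value and 0.73 and rose by 0.69 ± 0.14 (n = 2, adjusted p = 0.031). Stag1, a cohesin subunit, had -0.091, -0.050, 0.84, 0.26 and 0.72, near 0 on arrays 1 and 2, and rose by 0.39 ± 0.09 (adjusted p = 0.031). One of its 2 probes was above 0 on the unnumbered array alone. Lin54, of a complex that controls cell cycle genes, had 0.076, no value, 0.97, no value and 1.14 and rose by 0.67 ± 0.17 (n = 3, adjusted p = 0.0454), or by 1.31 ± 0.17 without array 1.

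Fen1, a nuclease of DNA replication and repair and outside the list, had 0.50, 0.43, 0.57, 0.45 and 0.27 and rose by 0.41 ± 0.10 (adjusted p = 0.0441). Its 2 probes disagreed on array 1, at -0.14 and 1.13, and on the unnumbered array, at 0.63 and -0.09. These 5 genes passed without array 1 and not without number 2 (adjusted p from 0.0598 to 0.133), array 3 (0.064 to 0.13) or the unnumbered array (0.396 to 0.436).

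Cytosolic ribosomal proteins had 67 measured genes, of which 3 rose (4.48%, beside 4.12% of all features), 33 lay above 0 and 34 below, and the median was -0.001. In the same model the other regions had medians of 0.167 (hippocampus), 0.160 (cerebellum) and 0.162 (brain stem-diencephalon). The difference between regions was not tested for the list. The 3 genes were Rpl35a, at 0.45 ± 0.10 (adjusted p = 0.031), Rps14, at 0.32 ± 0.08 (adjusted p = 0.0461), and Rpl6, at 0.29 ± 0.07 (adjusted p = 0.0464). Rpl6 had 0.41, 0.44, 0.23, 0.58 and 0.066, above 0 on every array, and its 3 probes were above 0 on all 5. Rpl35a read 0.92 on the unnumbered array, and had 0.21 without it.

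Of 34 proteasome genes 2 rose (5.88%, beside 4.12% of all features) and the median was 0.031. Psmd5, which assists assembly of the regulatory particle, had 0.12, 0.21, 0.38, 0.38 and 0.59 and rose by 0.35 ± 0.09 (adjusted p = 0.0451). Psma2, a subunit of the core, had 0.056, 0.25, 0.66, 0.54 and 0.55 and rose by 0.41 ± 0.11 (adjusted p = 0.0459). Of the 5 called genes of ribosome and proteasome, all passed without array 1 and Rpl35a alone without number 2 (adjusted p = 0.0234). None passed without array 3 (0.105 to 0.146) or the unnumbered array (0.44 to 0.607).

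Several called genes outside the lists described above act in transcription or signalling. Zbtb18, a repressor needed for the maturation of cortical projection neurons, had -0.58, -0.85, no value, -1.17 and -1.28. All 4 values were below -0.5, and Zbtb18 fell by 0.99 ± 0.16, or 1.99-fold (SE, n = 4, adjusted p = 0.0102). It was the 1 call (50%, beside 4.12% of all features) among the markers of cortical projection neurons, of which only 2 were measured. These 2 lay below 0, with a median of -0.627. The Notch ligand Jag1 had -0.36, -0.50, no value, -0.58 and -1.68, with the unnumbered array far under the others, and fell by 0.91 ± 0.17 (adjusted p = 0.0219), and had -0.56 without that array. Ptp4a3, a phosphatase of the membrane, had no value, -0.90, -1.23, -0.75 and -1.29 and fell by 1.04 ± 0.16, or 2.05-fold (n = 3, adjusted p = 0.0102).

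Ier5, an immediate early gene that acts on heat shock factor, had -0.053, -0.91, -0.59, -0.74 and -1.0, with array 1 near 0. It fell by 0.68 ± 0.13 (n = 4, adjusted p = 0.0219). This was the 1 call among 6 immediate early genes (16.7%, beside 4.12% of all features), whose median was 0.126. Smad1, which carries bone morphogenetic protein signals, had -0.45, -0.34, -0.34, -0.23 and -0.42, alike on all 5 arrays, and fell by 0.36 ± 0.08 (adjusted p = 0.0364). The zinc finger gene Zfp462 had -0.18, no value, -0.59, -1.12 and -0.77 and fell by 0.67 ± 0.12 (adjusted p = 0.0209). Rere, a corepressor, and Dicer1, which cuts microRNA precursors, fell by 0.63 ± 0.14 and 0.62 ± 0.12 (adjusted p = 0.0348 and 0.0219), below 0 on all 4 arrays with a value. The corepressor Sin3b had 0.33, 0.34, 0.45, 0.65 and 0.77 and rose by 0.54 ± 0.12 (adjusted p = 0.0303).

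Without the unnumbered array none of these 9 genes passed (adjusted p from 0.237 to 0.447), and Zbtb18, Sin3b and Dicer1 had -0.66, 0.35 and -0.40. Zbtb18 and Ptp4a3 passed without number 2, Zbtb18 and Dicer1 without array 3, and all 9 without array 1.

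Among the remaining named genes, Tmem254a, a membrane protein, had 0.40, 0.46, 0.89, 0.83 and 0.67 and rose by 0.67 ± 0.09, or 1.59-fold (SE, n = 4, adjusted p = 0.00439). Bbs2, a subunit of the complex that carries cargo into cilia, had 0.36, 0.62, 0.60, 0.49 and 0.39 and rose by 0.46 ± 0.08 (adjusted p = 0.0115). Rnpep, an aminopeptidase, had -0.41, -0.63, -0.80, -0.57 and -0.55 and fell by 0.58 ± 0.09 (adjusted p = 0.0102). These 3 had one sign on all 5 arrays, with array 1 nearest to 0. Fbxo34, an F-box protein, had 0.20, 0.79, 0.80, 0.82 and 0.90, with array 1 apart, and rose by 0.71 ± 0.16 (adjusted p = 0.031). The centrin Cetn4 and the RNA uridylyl transferase Tut7 had no fitted value on array 1 and rose by 0.66 ± 0.13 and 0.60 ± 0.12 (n = 3, adjusted p = 0.0219 and 0.0259). Another Tut7 probe, which missed the filter, had -0.20 on array 1, 0.19 on array 2 and 0.44 on array 3.

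Large ratios on few arrays came from a pair of genes. Slc16a13, of the monocarboxylate transporter family, had no value, -3.15, no value, -3.31 and -3.41, and fell by 3.22 ± 0.33 (n = 3, adjusted p = 0.000761). A second probe of Slc16a13, which missed the filter, had 0.23 on array 1 and 0.27 on the unnumbered array, so the probes of this gene disagreed. Fbxw24, of the F-box family, had no value, -3.85, -4.20, -2.98 and no value and fell by 3.21 ± 0.37 (n = 2, adjusted p = 0.0039). It had -1.96 without number 2.

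Msantd1, Khdc1b and the exportin Xpo4 had values in cortex nearer to 0 than in the other regions. No difference from the mean of those regions passed in the model used here. With the replicate number added as a block, those of Msantd1 and Xpo4 passed (limma, adjusted p = 0.0308 and 0.0317). In cortex Msantd1 had -0.081, -0.53, -1.46, -1.11 and -2.08 and fell by 1.13 ± 0.23 (adjusted p = 0.0235), with -0.62 without the unnumbered array, beside fitted values of -2.14 (hippocampus), -2.29 (cerebellum) and -2.39 (brain stem-diencephalon). Khdc1b had no value, -1.12, no value, -0.85 and -1.33 in cortex. It fell by 1.10 ± 0.21 (n = 3, adjusted p = 0.0235), with -0.88 without the unnumbered array, beside -1.76, -2.0 and -2.06. A second Khdc1b probe, which missed the filter, had a cortex value only on array 3, at -0.22. Xpo4 was below 0 on all 5 arrays but did not pass, at -0.82 ± 0.26 (adjusted p = 0.0724), beside -2.30, -1.96 and -2.08. Fam220a went the other way, with -0.91 ± 0.15 in cortex on 3 arrays (adjusted p = 0.0116) and values from -0.19 to -0.14 elsewhere.

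Of these 11 called genes all passed without array 1. Tmem254a, Slc16a13, Fam220a and Rnpep passed without number 2, these 4 with Bbs2 and Fbxw24 without array 3, and Fbxw24 alone without the unnumbered array, on which it had no value.

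Markers of cell types other than neurons were looked at beside these changes. All 6 measured microglial and macrophage genes lay below 0, from -0.42 to -0.18, with a median of -0.236. There was 1 call (16.7%, beside 4.12% of all features). That call was Cst3, a secreted protease inhibitor that astrocytes and neurons also make, which had -0.20, -0.29, -0.40, -0.39 and -0.70 and fell by 0.42 ± 0.08 (SE, n = 4, adjusted p = 0.0235). The complement subunit C1qb had -0.33 ± 0.09 (adjusted p = 0.0555). Of 5 vessel genes 4 lay below 0 (median -0.430), and 1 was called (20%, beside 4.12% of all features). This was Esam, an endothelial adhesion molecule, which had -0.20, -0.32, -0.63, -0.36 and -0.63 and fell by 0.47 ± 0.08 (adjusted p = 0.0115). Pecam1, of the same cells, had -0.43 ± 0.11 (n = 3, adjusted p = 0.0508).

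Haemoglobin beta, Hbb-b1, a marker of blood, had -0.10, 0.59, no value, 0.76 and 0.93 and rose by 0.63 ± 0.15 (n = 4, adjusted p = 0.0433), while Bpgm, the other of 2 measured erythrocyte genes, had -0.17. The 6 astrocyte genes had 0 calls and a median of -0.168, with the glutamine synthetase Glul at -0.30 ± 0.10 (adjusted p = 0.0789). Of the 5 genes of choroid plexus and meninges none passed, and the transthyretin gene Ttr had -0.13, -0.67, no value, -0.66 and -0.73 and a fitted value of -0.70 ± 0.19 (adjusted p = 0.0501). The 2 measured myelin genes had a median of -0.108. The part of cell composition in the changes above was not tested. Cst3, Esam and Hbb-b1 passed without array 1, Esam alone without number 2 (adjusted p = 0.0462), and none without array 3 (0.0509 to 0.135) or the unnumbered array (0.231 to 0.545).

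**Figure D3:**
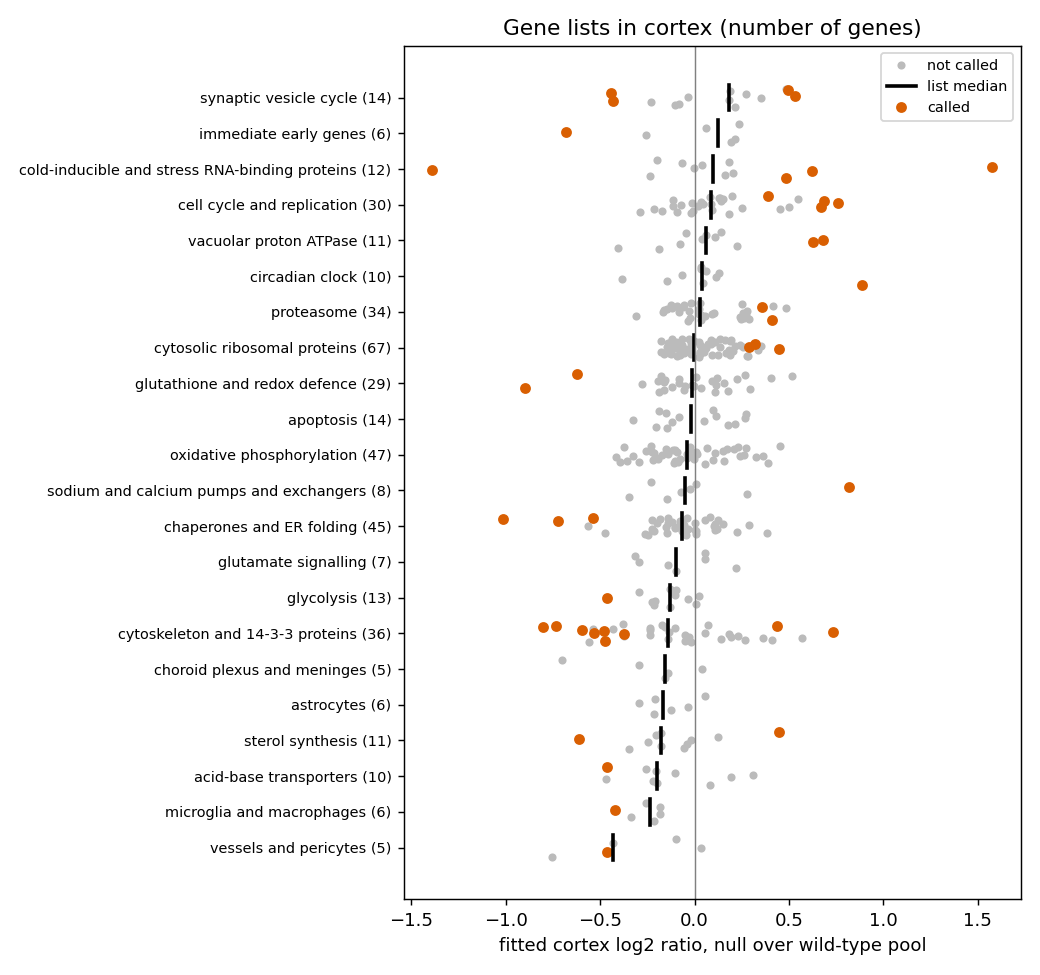
Fitted cortex log2 ratios of the genes on each list with 5 or more measured genes, with called genes in orange, the list median as a black bar and the median of all features as a grey line. The calls of the cytoskeletal list lay mostly below 0 (7 of 9) and those of the cell cycle list above it (4 of 4). The medians of the plotted lists lay between -0.430 and 0.183.

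Neurotransmission itself was thinly measured. Of 7 genes of glutamate signalling 0 were called, with a median of -0.096, of 4 voltage-gated cation channels 0 were called, and no gene of GABA and glycine signalling passed the filter. Apoptosis had 0 calls in 14 genes and a median of -0.018.

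Cortex was set against the other regions to see where it differed. Cortex minus the mean of the other 3 regions had 0 calls with limma in 8319 features (0%), with a lowest adjusted p of 0.206 and 635 features at an unadjusted p under 0.05. Single replicates moved this count too. It was 7 without cortex array 1, with Ier5 (adjusted p = 0.0491) and Zfp462 (adjusted p = 0.0303) among them, 4 without cortex number 2, with Fam220a (adjusted p = 0.00794), and 11 without hippocampus 1, with Jag1 (adjusted p = 0.0123), Xpo4 (adjusted p = 0.0136) and Msantd1 (adjusted p = 0.0297). Cortex minus hippocampus had 1 call (0.012%), cortex minus cerebellum 4 calls (0.0481%) and cortex minus brain stem-diencephalon 0 (0%). The comparisons share the cortex arrays.

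The hippocampal call was Prkcd, protein kinase C delta. In cortex it had 0.43, -0.23, 0.16, 0.24 and 0.37, with array 2 below 0, and a fitted value of 0.24 ± 0.11 (adjusted p = 0.182), beside -0.95 in hippocampus. The difference was 1.19 ± 0.17 (adjusted p = 0.0405). Ppp1r1b, which inhibits protein phosphatase in neurons that respond to dopamine, had 0.23 in cortex, above 0 on all 5 arrays, beside -0.63 in hippocampus, and the difference of 0.85 ± 0.16 (adjusted p = 0.382) did not pass.

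The one named gene among the cerebellar calls was Cst3, at -0.42 in cortex and 0.36 in cerebellum, with a difference of -0.79 ± 0.13 (adjusted p = 0.0442). Every cortex replicate was below 0 and every cerebellar replicate above it. The same held for Ier5, Zfp462 and C1qb, whose differences were -0.81 ± 0.20 (adjusted p = 0.286), -0.99 ± 0.19 (adjusted p = 0.151) and -0.77 ± 0.15 (adjusted p = 0.136).

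With the replicate number added as a block, Jag1, Msantd1, Xpo4 and the zinc finger gene Zfp84 passed against the mean of the other 3 regions. Their adjusted p with limma ran from 0.021 to 0.0475. In the model without this block, which gave the values below, the genes with the smallest p did not pass. Jag1 had 1.16 ± 0.20 (adjusted p = 0.206), that is, it was less reduced in cortex, at -0.91, than elsewhere, at -2.15 to -2.01. Cks2, a subunit of cyclin-dependent kinases, rose in cortex by 0.59 ± 0.14 (n = 3, adjusted p = 0.0451) and had -0.091, -0.13 and -0.35 in the other regions, with a difference of 0.78 ± 0.16 (adjusted p = 0.348). Without the unnumbered array the cortex value of Cks2 was 0.35 (adjusted p = 0.521), and its call also ended without number 2 and without array 3 (adjusted p = 0.0974 and 0.12). Ciart had 0.17, 0.25 and 0.26 elsewhere and a difference of 0.66 ± 0.16 (adjusted p = 0.348). Rbm3 had 1.72, 1.38 and 1.43 elsewhere, and its difference of 0.069 ± 0.15 (adjusted p = 0.928) was smaller than its SE.

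**Figure D4:**
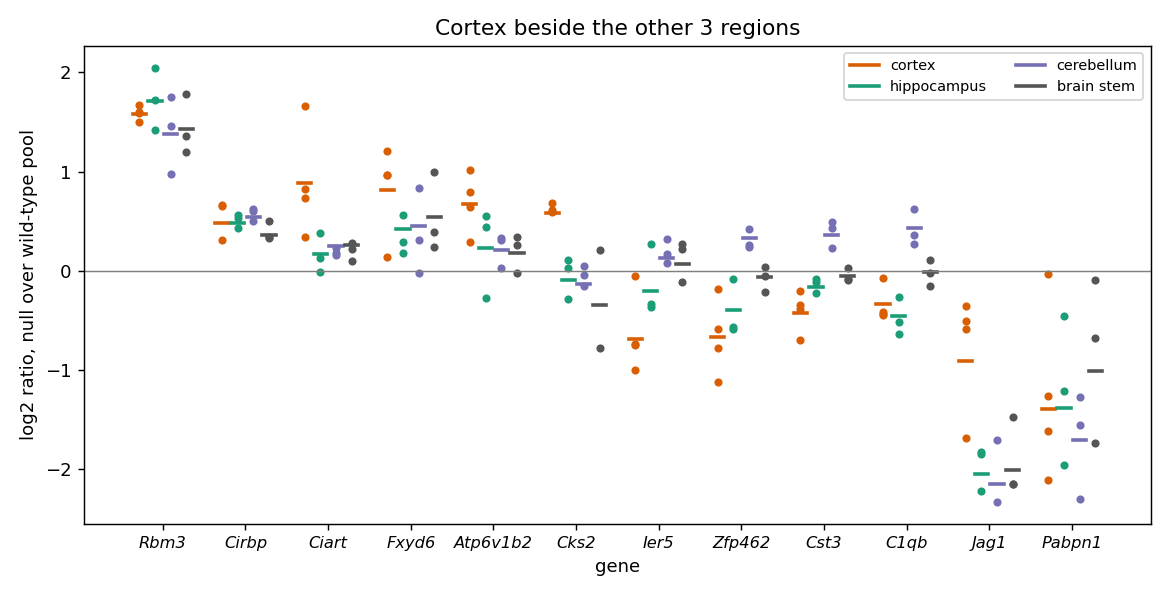
Log2 ratios of null over wild-type pool for 12 genes in 4 regions, with a point for each replicate and a bar for the fitted value. Rbm3 lay above 0 in every replicate of every region, while Cst3 and Ier5 lay below 0 in every cortex replicate and above 0 in every cerebellar one.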

How the data were processed

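The deposited table held a log ratio per probe and array, per the file headers and labels, and was read as log2 from its values. As deposited it lay near 0, with medians from 0.0122 to 0.0609 on the cortex arrays, and how the authors made the ratios is not stated. Of 15245 probes, 7662 to 12149 had a value on a cortex array (5374 on all 5), and empty cells were treated as missing. Signal and background were not analysed here. Precision is limited by the number of arrays. Gene symbols came from the platform annotation: 9604 probes had one symbol, 213 several and 5428 none, and 9496 were matched through Entrez IDs to current mouse genes (names on GRCm38.p6).

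Swapped arrays were multiplied by -1, and array medians were set to 0. Probes needed 3 or more values in every region, with 1 or more per orientation (9701 probes, 8319 features, 5255 of them genes). Arrays of one region and number were averaged, giving 13 replicates, 4 of cortex. The unnumbered array counted as a replicate of its own, although it may repeat a numbered extract. The model in limma 3.58.1 (R 4.3.3) fitted region and orientation, the latter as the mean over the arrays with a value (prior degrees of freedom 6.04, residual 8). The pooled wild type is the only control, and its spread is left out. The labels do not name separate animals, so the p-values rest on the spread between samples, and that spread may be technical. One array was deposited nearly unchanged under cerebellum and brain stem-diencephalon and enters the shared spread.

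Named genes were, by rule, the 20 highest and 20 lowest called genes with at least 4 arrays and one sign on each, the 10 higher and 10 lower with the largest weakest array among those with one sign on all 5, up to 4 genes per list by p, the 8 with the smallest p against the other regions, and genes named in an earlier account of these data. Not all of them are described, and the targeted gene is not reported here. RIKEN clones, gene models and pseudogenes were not named. Members and lists were chosen with earlier results of these data known, so lists were counted and not tested. Scripts were tested on simulated data. Promoter windows of RefSeq were searched in Python. Alternatives are described in the closing section.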

Additional observations from a re-analysis of the deposited data

Results flagged for a closer look

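In 9 of 72 genes described with 4 cortex replicates, one replicate lay far from the other 3 for their range. Chance gives this in about 1 in 20 independent groups, but these genes were chosen on the same replicates and share array 1. The count cannot therefore be judged against that rate. Replicate 1, which is array 1, was the distant one in 8 of the 9: Pabpc1 at 0.322, Txn1 at -0.153, Ywhag at -0.194, Septin11 at -0.0454, Pfkl at 0.0574, Fbxo34 at 0.199, C1qb at -0.0710 and Ttr at -0.132. In each of them it lay nearer to 0 than the others or on the other side of it. For Th, tyrosine hydroxylase, replicate 2 was at -0.152 beside 0.632 to 0.745 in the others.

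Several genes had every cortex replicate on one side of 0 and every replicate of another region on the other. Cortex minus cerebellum was -0.808 for Ier5, -0.993 for Zfp462, -0.787 for Cst3 and -0.769 for C1qb, and passed for Cst3 alone (limma, adjusted p = 0.0442). Cortex minus hippocampus was -1.38 for Ttr, 0.853 for Ppp1r1b and 1.19 for Prkcd, and passed for Prkcd (adjusted p = 0.0405). The zinc finger gene Zfp84 had 0.464 against hippocampus, 0.476 against cerebellum and 0.577 against brain stem-diencephalon, with adjusted p from 0.413 to 0.948. Ptpre, a receptor phosphatase, had -0.479 against brain stem-diencephalon (adjusted p = 0.759).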

How the results depend on the processing

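The count of 343 cortex calls was 37 with arrays scaled to one spread, 222 without an orientation term, 2 with a variance trend and robust moderation, 771 with every array by itself, 116 and 11 with the unnumbered array averaged with number 1 or number 3, 97 and 45 with cortex arrays only, with and without the orientation term, and 24 with a filter on cortex alone. It stayed within 1.5 times without centring (360), with complete features (265), with probes not averaged (415) and without the repeated array (404). Leaving out one replicate gave 6 to 1689. The difference from the mean of the other regions had 0 calls, and 0 to 11 with one replicate left out. With the replicate number as a block, the counts were 685 and 11, with Jag1, Msantd1, Xpo4 and Zfp84 among the 11. Deviations of same-numbered replicates in 2 regions correlated at -0.033 to 0.573 (median 0.268), over 0.1 in 14 of 18 pairs. Other pairs correlated at -0.574 to 0.374 (median -0.127). The numbers were not taken as pairing because not every same-numbered pair was over 0.1, although the medians hint at pairing. The 779 features with one sign were 295 with swapped arrays not turned. Over 88 genes and their alternatives, none of 2330 values changed sign. Of 69 called genes, 69 passed with the block and without array 1, 13 without number 2, 11 without array 3, 3 without the unnumbered array and 17 after scaling. Why these settings moved the counts was not tested. The number of arrays limits these results, with a median SE of 0.103 on the log2 scale over all features.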
